A study of Mus musculus with 9 samples.

Results

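The receptors through which blood progenitors read their growth factors were followed across normal and leukemic cells: Kit, Flt3, Csf1r, Csf2ra, Csf2rb, Csf2rb2, Csf3r, Il3ra and Il6ra. All probe sets annotated to these 9 genes were taken, which gave 15 of the 22690 probe sets on the array. Of these, 14 carried a single gene symbol and 1 carried both Csf2rb2 and Csf2rb. After a filter on dim signals 11 probe sets were tested, and 7 of the 9 genes had a tested probe set of their own. Flt3 and Csf2rb had none. The 9 mouse arrays fall into 3 groups of 3. GMP are normal granulocyte-macrophage progenitors from bone marrow. L-GMP are cells resembling GMP from the marrow of leukemic mice, in a study of leukemia driven by the fusion protein MLL-AF9. L-GMP-derived is the name used here for the arrays titled AKLG, whose source is L-GMP and which were read, by elimination, as the cultured progeny that the series' design mentions. The labels describe every array as sorted hematopoietic cells, and give no strain, age, sorting antigens, culture cytokines or way of delivering the fusion gene. Whether a group's 3 arrays hold RNA of different animals or cultures is not stated. P-values therefore reflect only how far these arrays scatter, and that scatter may be technical.

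These receptors belong to a pair of families. Kit, Flt3 and Csf1r are receptor tyrosine kinases, which bind stem cell factor, Flt3 ligand and macrophage colony-stimulating factor. The others are cytokine receptors without a kinase domain, which signal through Janus kinases and STAT factors. Csf2ra and Il3ra are the ligand-binding alpha chains for GM-CSF and interleukin-3, and Csf2rb is the beta chain that both share. Csf2rb2 is a second, closely similar beta chain found in mice that works with interleukin-3. Csf3r binds G-CSF, and Il6ra binds interleukin-6 and pairs with gp130, the product of Il6st. GMP depend on several of these ligands to survive and to mature into granulocytes and macrophages.

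Signals are linear intensities with a floor of 62.4 and a filter level of 111. Correlations over the tested probe sets were 0.958 to 0.991 within groups and 0.898 to 0.928 between them. The least typical array was L-GMP-derived replicate 1, at 0.958 and 0.964 with the other arrays of its group, which correlated at 0.989. Values without it are given for Csf1r, Il3ra and Il6ra and for some of the related lists. The 3' to 5' signal ratio of the beta-actin control, which reflects RNA quality, ran from 6.99 to 8.12 in GMP, 4.87 to 5.56 in L-GMP and 6.93 to 7.18 in L-GMP-derived cells. The same ratio for Gapdh overlapped between all groups, at 7.08 to 8.77, 6.17 to 11.6 and 5.86 to 9.22. The 3' to middle ratio of beta-actin did not overlap between any groups. It ran from 3.70 to 4.78 in GMP and 2.86 to 3.19 in L-GMP-derived cells, and was at most 2.57 in L-GMP. For Gapdh the 3' to middle ratio was highest on the GMP arrays, at 2.06 to 2.24. It ran from 1.80 to 1.90 in L-GMP and 1.74 to 2.01 in L-GMP-derived cells. The part of RNA quality in the results was not tested. Of 7 genes that mark GMP, 7 read above the filter level on all arrays of GMP and of L-GMP, and 5 did so in L-GMP-derived cells. There Kit was at or under that level and Cd34, a progenitor antigen, was under the floor on all 3 arrays. Mpo, another of these markers, passed the filter level but read 3581, 425 and 319 there, against 9224 to 9476 in GMP. Elane, Prtn3, Ctsg and Fcgr3 stayed close to GMP, with Elane at 5623 to 6445 against 6033 to 6716. Kit is itself one of these 7 markers.

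The receptors split into those that fell in the L-GMP-derived cells, those that were higher in leukemic cells, and those with no call. Kit fell 7.11-fold from L-GMP to L-GMP-derived cells, and Csf1r 9.29-fold on its brightest probe set. A second Csf1r probe set fell 4.55-fold and the remaining one was not called, so the size of that fall depends on the probe set. Neither gene was called between L-GMP and GMP. Il6ra stepped down from GMP to L-GMP and again to L-GMP-derived cells. Csf2rb2 rose in both leukemic groups, and Csf2ra rose most in L-GMP. In L-GMP against GMP, 2 of 7 tested genes rose and 1 fell (limma, Benjamini-Hochberg adjusted p below 0.05). Of all tested genes 25.9% were called in that comparison, 13.1% as higher and 12.8% as lower. In L-GMP-derived cells against GMP, 2 rose and 3 fell, where 24.1% of all tested genes were called, 13.4% as higher and 10.7% as lower. In L-GMP-derived cells against L-GMP, 0 rose and 4 fell, where 30.7% of genes were called, 16.6% as higher and 14.1% as lower. The median log2 difference over the 7 genes was -0.01, -0.22 and -0.38 in these comparisons, against -0.01, 0.00 and 0.00 over all tested genes. The groups did not overlap for 6, 6 and 5 of the 7 genes, against 46.9%, 41% and 41.2% of all tested genes. Both comparisons with GMP share the GMP arrays, so their values are set side by side only.

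**Figure D1:**
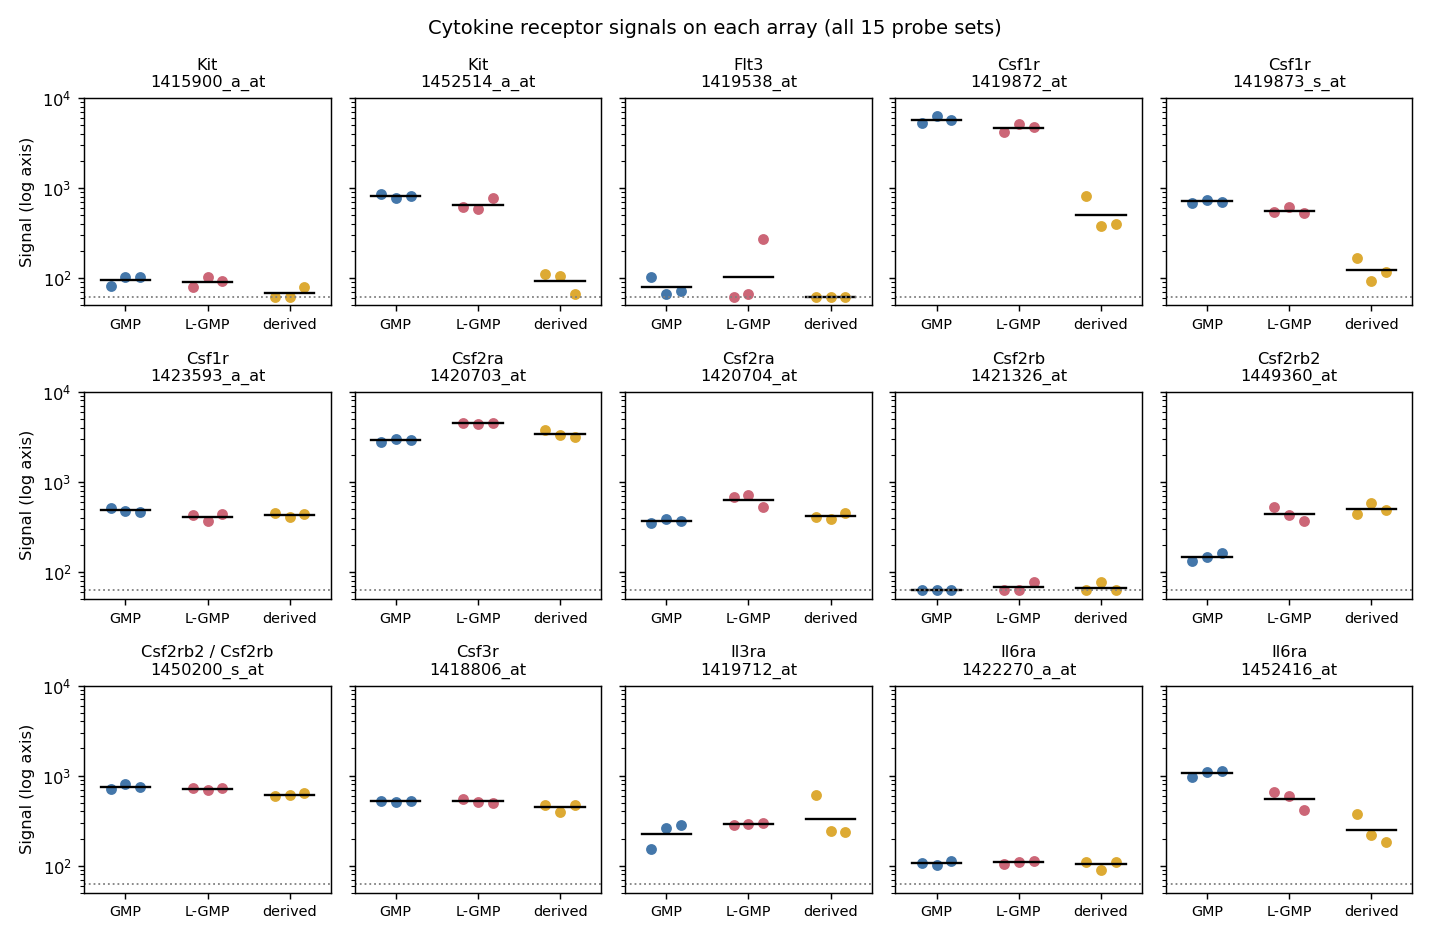
Signal of each of the 15 receptor probe sets on each array, on a log axis, in 3 GMP, 3 L-GMP and 3 L-GMP-derived arrays (derived). Points are arrays, bars are means of log2 signals, and the dotted line is the floor of 62.4, at which lower values are drawn. Kit (1452514_a_at), Csf1r (1419872_at and 1419873_s_at) and Il6ra (1452416_at) are lowest in L-GMP-derived cells, and Csf2rb2 (1449360_at) is lowest in GMP.

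RefSeq promoter entries of the GRCm38.p6 build were matched by symbol for 7 of the 9 genes, all but Csf1r and Csf2rb. They are shown for a pair of genes that fell in L-GMP-derived cells, Kit and Il6ra, and a pair that rose in L-GMP, Csf2rb2 and Csf2ra. These are the called receptor genes that had an entry. Each stretch runs 5′ to 3′ on the gene's strand and ends at the base before the outermost RefSeq start of the gene. Capitals mark matches to 3 textbook motifs of myeloid factors, searched on both strands: GAGGAA, the core bound by PU.1, TTNNGNAA, bound by C/EBP factors, and TGTGGT, bound by RUNX factors.
Kit, chr5:75574737-75574986, plus strand: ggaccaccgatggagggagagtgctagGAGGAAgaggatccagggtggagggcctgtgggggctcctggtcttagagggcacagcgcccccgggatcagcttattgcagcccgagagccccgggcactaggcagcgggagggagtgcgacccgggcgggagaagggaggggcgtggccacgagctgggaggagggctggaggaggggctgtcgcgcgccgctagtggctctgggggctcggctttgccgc
Il6ra, chr3:89913197-89913446, minus strand: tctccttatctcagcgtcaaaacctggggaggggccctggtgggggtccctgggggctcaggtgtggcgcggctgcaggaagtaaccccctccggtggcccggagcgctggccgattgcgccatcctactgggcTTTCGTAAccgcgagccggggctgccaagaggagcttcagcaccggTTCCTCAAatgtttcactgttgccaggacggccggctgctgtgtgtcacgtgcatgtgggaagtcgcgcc
Csf2rb2, chr15:78305722-78305971, minus strand: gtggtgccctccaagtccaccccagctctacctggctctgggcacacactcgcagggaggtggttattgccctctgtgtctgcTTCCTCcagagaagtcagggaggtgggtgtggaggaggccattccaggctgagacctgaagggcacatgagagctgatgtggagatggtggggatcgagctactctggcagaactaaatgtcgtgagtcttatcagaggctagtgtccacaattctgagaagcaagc
Csf2ra, chr19:61228462-61228668, minus strand: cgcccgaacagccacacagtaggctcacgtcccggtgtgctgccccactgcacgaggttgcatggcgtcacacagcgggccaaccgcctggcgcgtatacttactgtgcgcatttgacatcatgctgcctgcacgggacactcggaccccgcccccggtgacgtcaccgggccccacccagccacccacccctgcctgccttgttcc
The Kit stretch held 1 match to the PU.1 core, which begins at position -223 from the start, and Csf2rb2 held 1, which begins at -167. The Il6ra stretch held 2 C/EBP matches, of which the one at -70 overlaps a match to the PU.1 core. Of all 32851 promoter entries, 23.3% held GAGGAA, 36.8% held TTNNGNAA and 14% held TGTGGT in the same 250 bases. The Csf2ra stretch of 207 bases showed none of these letters, where 19.3%, 33% and 12% of entries cut to that length held them. A match describes letters in a window and is not a binding site shown by these data.

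Kit, the receptor for stem cell factor and a defining antigen of early progenitors, was kept in L-GMP and nearly lost in L-GMP-derived cells. Its brighter probe set (1452514_a_at) read 861, 778 and 809 on the GMP arrays. L-GMP read 614, 587 and 771, and L-GMP-derived cells read 110.2, 105 and 67.0. The L-GMP-derived arrays lay far below all others, at or under the filter level, while the L-GMP arrays lay just under the GMP range without overlap. The signal in L-GMP-derived cells was 7.11-fold below L-GMP (log2 difference -2.83 ± 0.19 SE, adjusted p = 4.2e-06, limma) and 8.89-fold below GMP. L-GMP differed from GMP by -0.32 (95% interval -0.74 to 0.10, adjusted p = 0.247), which did not pass the test. The other Kit probe set (1415900_a_at) was dim, at 50.5 to 104 on all 9 arrays, and was not tested. Kit is a common sorting antigen of GMP. The antigens used here are not in the labels, and the part of the sort in these levels was not tested. In RNA from sorted bulk cells, fewer cells carrying a receptor and less RNA per cell cannot be told apart, here and for the receptors that follow.

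Mast cells also carry Kit, and most tested markers of mast cells and basophils were lower in L-GMP-derived cells than in GMP. Of the 8 markers fixed for them, 5 were tested, and 0 rose and 4 fell in L-GMP-derived cells against GMP, where 24.1% of all genes were called and 10.7% as lower. The 4 became 3 without GMP replicate 1 or L-GMP-derived replicate 3. Against L-GMP 0 rose and 3 fell, where 30.7% of all genes were called. In L-GMP against GMP, where Kit was not called, 0 rose and 2 fell, and 25.9% of all genes were called. Tpsb2, also tested, read 187 to 227 in GMP, 173 to 186 in L-GMP and 141 to 290 in L-GMP-derived cells. Their summed signal ran from 3750.3 to 4328 in GMP, 2353 to 5184 in L-GMP and 500.3 to 767 in L-GMP-derived cells. Cpa3, a mast cell protease gene, read 579 to 640 in GMP and 245 to 2206 in L-GMP, and was under the floor on all 3 L-GMP-derived arrays. Fcer1a and Cma1 were under the floor there too. Both were near it already in GMP, at 45.5 to 84.7 and 37.3 to 69.4, and were not tested. Fcer1a was also under the floor in L-GMP. Gata2, one of the 8, is described below among transcription factors. Hdc, which encodes the histamine-forming enzyme, read 94.0, 20.2 and 31.4 in L-GMP-derived cells against 2000.4 to 2480.1 in GMP and 1112 to 1577 in L-GMP. The part of such cells in the Kit result was not tested.

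Csf1r, the receptor for macrophage colony-stimulating factor and for interleukin-34, fell in L-GMP-derived cells by 2 of its 3 probe sets. The brightest (1419872_at) read 5322, 6318 and 5661 in GMP. It read 4176, 5124 and 4721 in L-GMP and 820.1, 383 and 402 in L-GMP-derived cells. Replicate 1 of the L-GMP-derived cells was the highest of its group, and all 3 lay far below the rest. The signal was 9.29-fold below L-GMP (log2 difference -3.22 ± 0.24 SE, adjusted p = 8.3e-06, limma) and -3.57 below it on the log2 scale without that array. The second probe set (1419873_s_at), whose type can bind related transcripts, read 526 to 608 in L-GMP and 168, 94.0 and 117 in L-GMP-derived cells, 4.55-fold lower (adjusted p = 1.94e-05).

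The third Csf1r probe set (1423593_a_at) showed no such loss. It read 513, 476 and 461 in GMP, 425, 369.9 and 437 in L-GMP and 448, 404 and 444 in L-GMP-derived cells. The L-GMP-derived arrays overlapped those of L-GMP and lay just below GMP. Its log2 difference between L-GMP-derived cells and L-GMP was 0.07 (95% interval -0.18 to 0.33, adjusted p = 0.675). The change of the first probe set differed from that of the third by -3.29 on the log2 scale (two-sided exact permutation over arrays, p = 0.1, the lowest value this design can give; 0.171 adjusted over 12 such tests). With the mean over its probe sets in place of the brightest, the log2 difference of Csf1r from L-GMP was -1.78 and that from GMP -2.07, against -3.22 and -3.52. The transcript region that each probe set reads was not analysed here.

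In L-GMP, Csf1r lay below GMP without overlap on the brightest probe set, by -0.30 on the log2 scale (95% interval -0.83 to 0.22, adjusted p = 0.396). This did not pass the test with all 9 arrays. It passed when L-GMP-derived replicate 1 was left out (adjusted p = 0.0223) and with only the 6 arrays compared (0.0364; 0.0223 to 0.621 over all alternatives). Monocytes and macrophages carry Csf1r, and 4 of 8 markers fixed for them were tested. In L-GMP-derived cells 0 rose and 2 fell against L-GMP (median -0.48), where 30.7% of all genes were called, and 2 rose and 1 fell against GMP, where 24.1% were. In L-GMP against GMP 2 rose and 1 fell, where 25.9% of all genes were called. The summed signal of these markers ran from 4272 to 4556 in GMP, 4789 to 5427 in L-GMP and 2676 to 3245 in L-GMP-derived cells. That sum hides opposite changes. Adgre1 read 361 to 387 in GMP, 2749 to 3423 in L-GMP and 402 to 1297 in L-GMP-derived cells. Ccr2 read 3442 to 3791, 1389 to 1437 and 859 to 2363. Mrc1 was under the floor on all arrays, and Marco was at or near it in every group, at 34.3 to 63.6. The part of such cells in the Csf1r result was not tested.

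**Figure D2:**
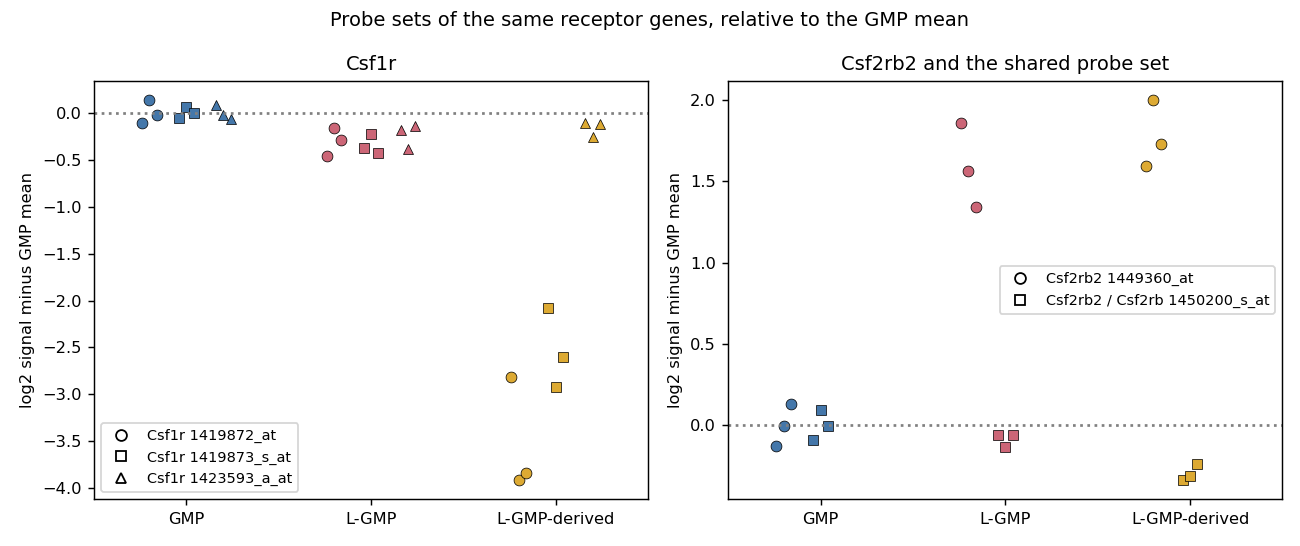
Log2 signal minus the GMP mean of the same probe set (vertical axis) on each of 9 arrays in 3 groups; symbols are probe sets and points are arrays. Left, the circles and squares of Csf1r drop in L-GMP-derived cells while the triangles (1423593_a_at) stay within 0.5 of the GMP mean. Right, the probe set of Csf2rb2 alone rises in both leukemic groups, and the one shared with Csf2rb does not.

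Flt3, the receptor for Flt3 ligand, which marks early lymphoid and myeloid progenitors, was near the floor. Its probe set (1419538_at) read 103, 66.2 and 71.9 in GMP and 49.5, 66.6 and 271 in L-GMP. In L-GMP-derived cells it read 33.0, -26.3 and 8.06. L-GMP replicate 3 alone passed the filter level, and the L-GMP-derived arrays were all below the floor and below every other array. No test was made.

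Among the GM-CSF and interleukin-3 receptor chains, Csf2ra rose in L-GMP by both probe sets. The brighter (1420703_at) read 2784, 2959.5 and 2898 in GMP, 4515, 4378 and 4440.4 in L-GMP, and 3718, 3342 and 3174 in L-GMP-derived cells. The groups were ordered GMP, L-GMP-derived, L-GMP without overlap. Csf2ra was 1.54-fold higher in L-GMP than in GMP (log2 difference 0.63 ± 0.07 SE, adjusted p = 7.58e-05, limma) and 1.31-fold lower in L-GMP-derived cells than in L-GMP (adjusted p = 0.00145). The dimmer probe set (1420704_at) gave 1.72-fold (adjusted p = 0.00182) and 1.52-fold (adjusted p = 0.00654) for the same comparisons. Csf2ra was also called higher in L-GMP-derived cells than in GMP, by 1.18-fold (adjusted p = 0.0216). That call ended under 7 of 19 alternatives, with adjusted p of 0.0738 when GMP replicate 1 was left out, 0.0645 when GMP replicate 3 was, and 0.206 with the replicate block. Over all alternatives it ran from 0.0162 to 0.206. The dimmer probe set did not pass there (adjusted p = 0.387).

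Csf2rb2, the beta chain for interleukin-3, rose more than 2-fold in both leukemic groups. Its own probe set (1449360_at) read 134, 146 and 160.4 in GMP. It read 529.7, 433 and 371 in L-GMP and 443, 585 and 485 in L-GMP-derived cells. All 6 leukemic arrays exceeded all GMP arrays by more than the spread within any group. The difference from GMP was 3.01-fold in L-GMP (log2 1.59 ± 0.16 SE, adjusted p = 5.81e-05, limma) and 3.42-fold in L-GMP-derived cells (log2 1.78 ± 0.16 SE, adjusted p = 2.8e-05). The leukemic groups differed from each other by 0.19 (95% interval -0.17 to 0.54, adjusted p = 0.421).

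The probe set annotated to both Csf2rb2 and Csf2rb (1450200_s_at) did not rise. It read 708, 804 and 751 in GMP, 722, 686 and 722 in L-GMP, and 597, 607 and 638 in L-GMP-derived cells, where all 3 arrays were the lowest. Its difference from GMP was -0.09 in L-GMP (95% interval -0.31 to 0.14, adjusted p = 0.596) and -0.29 in L-GMP-derived cells (-0.52 to -0.07, adjusted p = 0.0625). The intervals, unlike the adjusted p, are not adjusted for the number of tests, and neither difference passed. The change of the Csf2rb2 probe set exceeded that of the shared one by 1.67 in L-GMP and 2.07 in L-GMP-derived cells on the log2 scale (exact two-sided permutation p = 0.1 each, the smallest possible; 0.171 adjusted over 12 tests). The probe set of Csf2rb alone (1421326_at) read 24.9 to 32.1 in GMP, 34.2 to 77.6 in L-GMP and 36.6 to 76.3 in L-GMP-derived cells. That is at or close to the floor in every group, and it was not tested. How the shared signal divides between these similar genes cannot be read from these probe sets.

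Il3ra, the alpha chain for interleukin-3, did not pass in any comparison. It read 152, 260.3 and 282 in GMP, 285, 293 and 298 in L-GMP, and 608, 243 and 235 in L-GMP-derived cells. L-GMP-derived replicate 1 was far above its group, and GMP replicate 1 lay below its own. L-GMP-derived cells differed from GMP by 0.55 (95% interval -0.21 to 1.3, adjusted p = 0.283), and by 0.10 without L-GMP-derived replicate 1. Against L-GMP the difference was 0.16, and -0.29 without that array. The interval spans changes of more than 2-fold, so these arrays set a loose limit on Il3ra.

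Csf3r, the G-CSF receptor that drives neutrophil production, was the steadiest of the 7 tested receptors by its range of group means on the log2 scale. It read 521, 516 and 529 in GMP, 551, 514 and 494 in L-GMP, and 475, 397 and 476 in L-GMP-derived cells. L-GMP arrays lay on both sides of the GMP arrays, and the L-GMP-derived ones were the lowest. The difference of L-GMP from GMP was -0.01 (95% interval -0.26 to 0.25, adjusted p = 0.968). L-GMP-derived cells differed from GMP by -0.22 (-0.48 to 0.03, adjusted p = 0.195).

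Il6ra, the ligand-binding chain for interleukin-6, had a different level in each group. Its brighter probe set (1452416_at) read 962, 1094 and 1135 in GMP, 656, 597 and 418 in L-GMP, and 377, 219 and 182 in L-GMP-derived cells. No 2 groups overlapped, and the order was GMP, L-GMP, L-GMP-derived. The step from L-GMP to L-GMP-derived cells was 2.22-fold (log2 difference -1.15 ± 0.25 SE, adjusted p = 0.00651, limma), and L-GMP-derived cells were 4.3-fold below GMP (adjusted p = 2.23e-04). Without L-GMP-derived replicate 1 these log2 differences were -1.45 and -2.41, in place of -1.15 and -2.11. L-GMP was 1.94-fold below GMP (adjusted p = 0.0187). That last call rested on single arrays, with adjusted p of 0.0622 when GMP replicate 2 was left out, 0.0735 for GMP replicate 3 and 0.0733 for L-GMP replicate 3. It was 0.0808 when no dim probe sets were filtered out, and the alternatives spanned 0.0016 to 0.0808. The dim probe set (1422270_a_at) read 90.6 to 113 on all arrays and was not tested. Il6st, which encodes the gp130 partner chain, read 641 to 708 in GMP, 585 to 637 in L-GMP and 548 to 636 in L-GMP-derived cells, with adjusted p of 0.35 or more in each comparison.

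**Figure D3:**
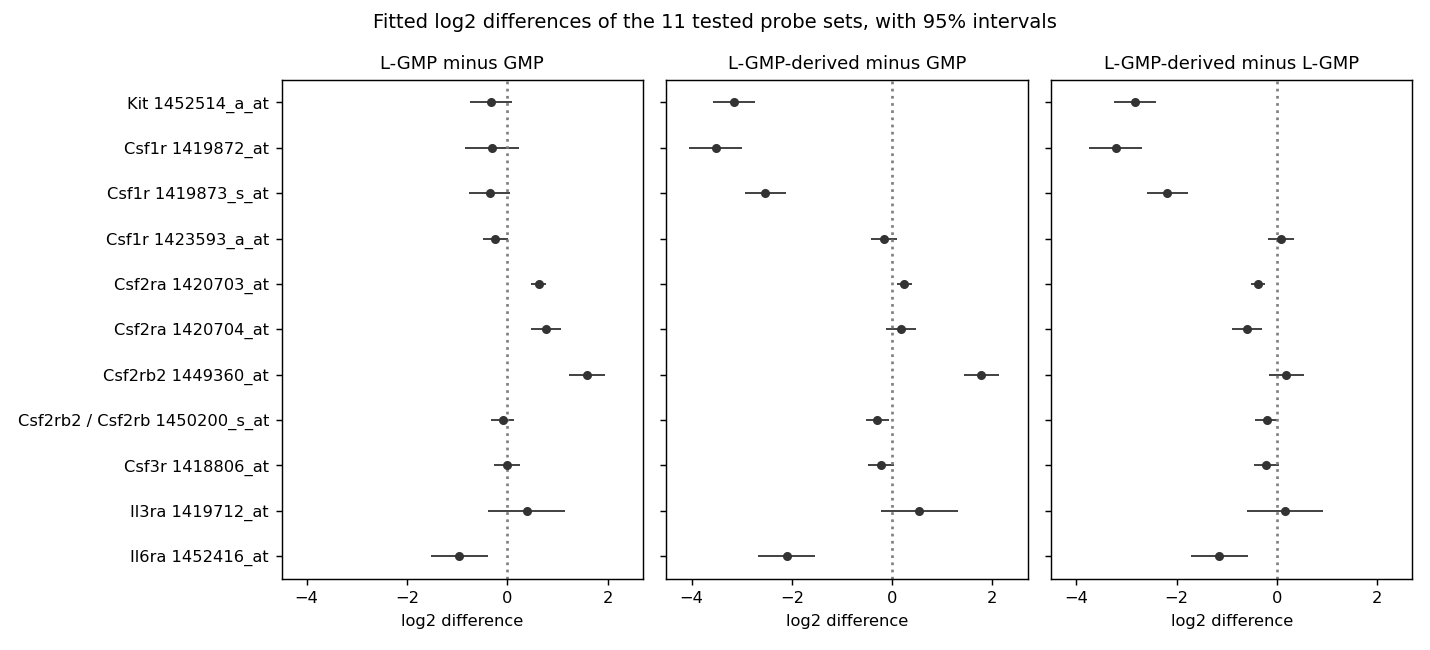
Fitted log2 differences of the 11 tested receptor probe sets (points) with 95% intervals from limma (bars) in 3 comparisons of 3 arrays each; the dotted line is no difference. Intervals of Kit, Il6ra and both falling Csf1r probe sets lie below 0 in both comparisons of L-GMP-derived cells, and that of Csf2rb2 lies above 0 in both comparisons with GMP.

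The ligands of these receptors were mostly at background. Of 9 ligand genes, 8 had a named probe set and 2, Csf1 and Csf3, passed the filter, with 0 called in any comparison. Csf1, which encodes macrophage colony-stimulating factor, read 412 to 482 in GMP, 402 to 496 in L-GMP and 470.5 to 549 in L-GMP-derived cells, so the groups overlapped. Il3 and Il6 were under the floor on all 9 arrays. Over the 2 tested ligand genes the median log2 difference was 0.09, 0.25 and 0.16 in the 3 comparisons. Secretion by other cells is outside what sorted cells can show.

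Among 17 tested genes of other cytokine and chemokine receptors, 3 rose and 2 fell in L-GMP against GMP. In L-GMP-derived cells 1 rose and 2 fell against GMP, and 0 rose and 5 fell against L-GMP. Their medians were 0.17, -0.15 and -0.30. Il10rb, a chain of the interleukin-10 receptor, read 436 to 457 in GMP and 946 to 987 in L-GMP, 2.15-fold higher (adjusted p = 1.7e-04, limma). Cxcr4, the chemokine receptor that holds progenitors in marrow, was 1.51-fold higher in L-GMP than in GMP and 2.42-fold lower in L-GMP-derived cells than in L-GMP (adjusted p = 6.48e-05). In L-GMP against GMP the count fell from 5 to 2 or 3 when GMP replicate 1, 2 or 3 or L-GMP replicate 2 or 3 was left out. The shares called, 29.4%, 17.6% and 29.4%, were near those of all genes.

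Of 28 tested genes that carry the receptors' signals, 6 rose and 1 fell in L-GMP against GMP, and 4 rose and 2 fell in L-GMP-derived cells against GMP. Against L-GMP, 0 rose and 9 fell in L-GMP-derived cells. These shares, 25%, 21.4% and 32.1%, were near those of all genes, and the medians were 0.21, -0.06 and -0.11. Jak2, the kinase attached to the beta chains, read 649 to 793 in GMP, 845 to 895 in L-GMP, and 323, 472 and 452 in L-GMP-derived cells, 2.12-fold below L-GMP (adjusted p = 5.35e-04). Stat5a and Stat5b, which encode the factors it activates, passed in none of the 3 comparisons (adjusted p from 0.15 to 0.883). Fyn, a Src family kinase, read 144 to 166 in GMP and was under the floor in L-GMP, at least 2.52-fold lower (adjusted p = 8.5e-05). The calls moved with single arrays: the 9 that fell against L-GMP became 4 without L-GMP replicate 1 and 5 without L-GMP replicate 3. In L-GMP against GMP the total of 7 became 4 without GMP replicate 3 and 11 without L-GMP-derived replicate 1. In L-GMP-derived cells against GMP the total of 6 became 3 without GMP replicate 1 or 3.

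Of 20 tested brakes on receptor signalling, 3 rose and 4 fell in L-GMP against GMP, 4 rose and 4 fell in L-GMP-derived cells against GMP, and 6 rose and 3 fell against L-GMP. The shares called were 35%, 40% and 45%, against 25.9%, 24.1% and 30.7% of all genes, and the medians -0.04, -0.19 and -0.11. Spred1, which inhibits Ras signalling, read 501, 492 and 496 in GMP, 118, 84.3 and 123 in L-GMP, and 292, 517 and 437 in L-GMP-derived cells. It was 4.65-fold lower in L-GMP than in GMP (adjusted p = 3.85e-05, limma) and 3.78-fold higher in L-GMP-derived cells than in L-GMP (adjusted p = 9.05e-05). Spred2 and Nf1, whose product switches Ras off, were 2.3-fold and 2.2-fold lower in L-GMP than in GMP. Dusp6, a phosphatase acting on ERK kinases, was under the floor on all L-GMP arrays, at least 3.26-fold lower. Other members of the list did not fall there: Spry2, another inhibitor of receptor kinase signalling, read 410.4 to 449 in GMP and 514 to 685 in L-GMP, and Spry1 98.3 to 135 and 103 to 125. Cbl read 382 to 414 in GMP and 566 to 812 in L-GMP, and Ptpn6 888 to 955 and 1324 to 1480, each higher without overlap.

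Cish, a feedback inhibitor induced by STAT5, read 209.5 to 249 in GMP, 254 to 289.8 in L-GMP, and 1838, 2225 and 2396 in L-GMP-derived cells, 8.07-fold above L-GMP (adjusted p = 3.14e-07). Socs2 was under the floor on all GMP and L-GMP arrays and read 153 to 178 in L-GMP-derived cells, at least 2.67-fold higher than in either. Its probe set is of a type that can bind related transcripts. Socs3 differed from both in its pattern, with 28.4, 352 and 208 in GMP, 145, 181 and 196 in L-GMP-derived cells, and values under the floor in L-GMP. It was called at least 2.76-fold higher in L-GMP-derived cells than in L-GMP (adjusted p = 0.0405), a call that ended without any 1 of 6 arrays: GMP replicate 3, L-GMP replicates 1, 2 and 3, and L-GMP-derived replicates 2 and 3 (adjusted p 0.058 to 0.112). Dusp1, an immediate early phosphatase gene, was at least 24.2-fold lower in L-GMP-derived cells than in GMP. That fold ran to 50.3 without GMP replicate 1 and to 16.1 without GMP replicate 2, as its GMP arrays spread from 369.6 to 3617. The total of 8 calls of this list against GMP became 4 or 5 without GMP replicate 2 or 3 or L-GMP-derived replicate 2 or 3, and the 7 calls in L-GMP became 11 without L-GMP-derived replicate 1.

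**Figure D4:**
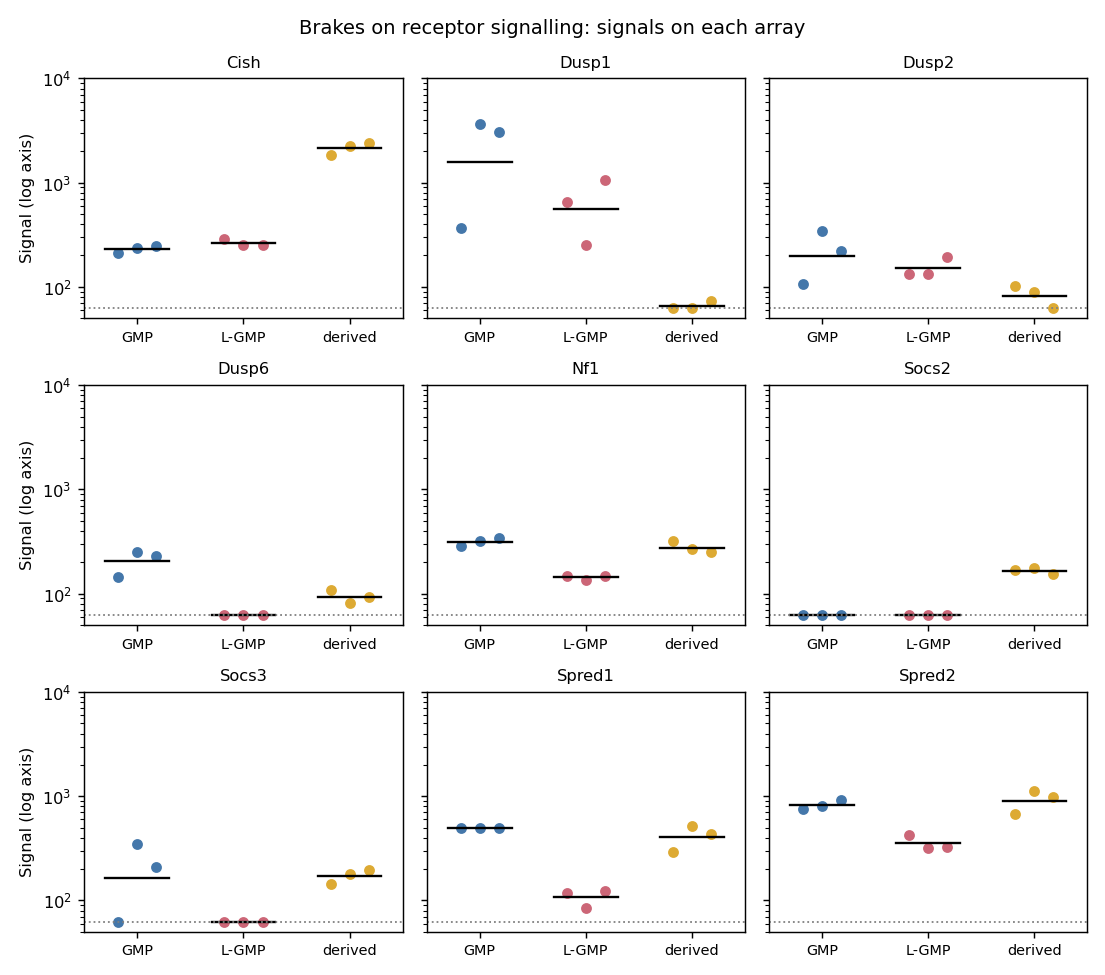
Signals of the 9 brakes on receptor signalling named by rule, on each array, on a log axis; points are arrays, bars are means of log2 signals, and the dotted line is the floor of 62.4, at which lower values are drawn. Spred1, Spred2, Nf1 and Dusp6 are lowest in L-GMP, and Cish and Socs2 are highest in L-GMP-derived cells (derived).

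Transcription factors known to act on myeloid receptor genes moved in both directions. Of 22 tested, 6 rose and 4 fell in L-GMP against GMP, 5 rose and 9 fell in L-GMP-derived cells against GMP, and 1 rose and 10 fell against L-GMP. The shares called were 45.5%, 63.6% and 50%, against 25.9%, 24.1% and 30.7% of all genes, and the medians 0.04, -0.26 and -0.34. Gata2, a factor of early progenitors and mast cells, read 594 to 647 in GMP, 539 to 996 in L-GMP, and 131, 95 and 104 in L-GMP-derived cells, 7.17-fold below L-GMP (adjusted p = 9.14e-06, limma). Irf8, which directs monocyte fate, read 2295 to 2361 in GMP, 1714 to 2162 in L-GMP, and 808, 476 and 382 in L-GMP-derived cells, 3.74-fold below L-GMP (adjusted p = 1.45e-04). Cebpa, a factor of granulocyte commitment, was highest in GMP, at 955 to 1347, and read 280.3 to 419 in L-GMP and 613 to 938 in L-GMP-derived cells, 2.43-fold above L-GMP (adjusted p = 0.00119). Spi1, which encodes PU.1 and was named after its values were seen, read 772 to 871 in GMP, 1616 to 1909 in L-GMP and 920.3 to 1194 in L-GMP-derived cells.

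The genes whose log2 signals followed each receptor most closely over the 9 arrays were found by Pearson correlation, as a description in which the group means carry most of the likeness. Kit was followed by Plekha1, Arap2 and 2310075K07Rik (r = 0.99 each). Csf1r was followed by Chdh, Anxa1 and Irf8 (r = 0.996, 0.992 and 0.992). Il6ra was followed by Tgfbi, Usp49 and Car3 (r = 0.99, 0.99 and 0.99). Anxa1, which encodes the anti-inflammatory protein annexin A1, averaged 5044 in GMP, 5368 in L-GMP and 339 in L-GMP-derived cells. Csf2rb2 was followed by Hoxa10, Ap3m2 and Ampd3 (r = 0.99 each), and Hoxa10, a homeobox gene, averaged 22.4, 236 and 313. Csf2ra was followed by Nbeal2, Srf and Ecpas (r = 0.99, 0.99 and 0.99). The genes nearest to Csf3r (AU016916, Vmn1r65 and Sec14l2, r = 0.95, 0.94 and 0.94) and Il3ra (Slc38a10, Glg1 and Clasrp, r = 0.97, 0.94 and 0.93) followed less closely.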

How the data were processed

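Biotinylated cRNA from about 50 ng of RNA was hybridized to Affymetrix arrays, per the labels. The authors deposited a linear signal intensity for each array and probe set, and the submitters' processing notes name MAS5 (version 5). The sources used here do not state the summary step or the scaling target, and 0.939% of the values are negative. They do not say how negative values arose, so whether the deposited values are MAS5 signals as such is not known. Array trimmed means lay within 4.02% of their mean, so the deposited scaling was kept.

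A floor of 62.4, the 25th percentile, was applied to the signals, followed by log2. The 14578 probe sets above 111 (40th percentile) on at least 3 arrays were tested with limma 3.58.1 in R 4.3.3 (lmFit, eBayes with an intensity trend), on all 9 arrays with 1 shared spread and 6 residual degrees of freedom, two-sided, with Benjamini-Hochberg adjustment over all tested probe sets and a threshold of 0.05. Folds are between mean log2 signals and are understated near the floor; "at least" marks a lower group with an array at the floor. A gene stands for its tested probe set of highest mean signal (8965 genes), and names come from the platform annotation. Probe sets ending in _s_at or _x_at can bind related transcripts, among those named here Chdh, Hdc, Ptpn6, Socs2, Socs3, Srf and Tgfbi.

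Related genes were named by rule: up to 4 per list and comparison, by size of change, among called genes whose groups did not overlap, and the 3 closest in pattern to each receptor; fewer are given here. Outside the rule, Spi1, Spry1, Spry2, Cbl, Ptpn6, Stat5a, Stat5b, Il6st and Il5ra were named after their values were seen. The receptors, lists and rule were chosen with earlier results of these data known. The fit was also run on simulated data, and the outcome is not given here. Floor, filter, scaling, trend, arrays in the fit, replicate block, treatment of probe sets and omission of each array were varied; array omission for the related lists was added after seeing the data.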

Additional observations from a re-analysis of the deposited data

How the results depend on the processing

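Of 399 alternative values for the 21 receptor differences, 381 kept their direction and side of the threshold, 11 lost the call, 2 gained it and 5 changed sign, 0 of these 5 called with or without the change. The calls lost or gained belong to Csf2ra in L-GMP-derived cells against GMP, and to Il6ra and Csf1r in L-GMP against GMP, and stand in the report. The sign changed for Csf3r in L-GMP against GMP, from -0.01 to 0.0013 with quantile normalization, 0.0014 without GMP replicate 3 and 0.0279 without L-GMP replicate 3 (-0.0514 to 0.0279 with single arrays left out). For Il3ra it changed in L-GMP against GMP, from 0.38 to -0.11 with the replicate block, and in L-GMP-derived cells against L-GMP, from 0.16 to -0.29 without L-GMP-derived replicate 1 (-0.29 to 0.40 with single arrays left out). The cause was not tested. Receptor genes called ran from 2 to 4 in L-GMP against GMP, from 4 to 5 in L-GMP-derived cells against GMP, and stayed at 4 against L-GMP, over all alternatives. With single arrays left out, called probe sets ran from 2475 (without GMP replicate 3) to 4904 for L-GMP against GMP, 2306 (without GMP replicate 3) to 4456 for L-GMP-derived cells against GMP and 3341 to 5478 against L-GMP, in place of 3777, 3551 and 4354. With a replicate block the first pair of counts fell to 1916 and 1750, with 3 residual degrees of freedom and the GMP array without a number in a block of its own. Same-numbered L-GMP and L-GMP-derived arrays did not deviate together (correlations -0.31 to -0.13, and 0 of 6 arrays correlated best with their own number), so the numbers were not taken to pair samples. Among receptors the block ended only the Csf2ra call already given. Signals near the floor limit what can be said of Flt3, Csf2rb and the dim probe sets of Kit and Il6ra.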

Other observations

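Markers of other cells were measured on the same arrays. The shares of all genes called were 25.9% in L-GMP against GMP, 24.1% in L-GMP-derived cells against GMP and 30.7% in L-GMP-derived cells against L-GMP. Of 3 tested eosinophil genes, 2 rose and 0 fell in L-GMP against GMP, and 0 rose and 2 fell in L-GMP-derived cells against GMP and against L-GMP. Siglecf, an eosinophil lectin receptor, read 1655 to 2057 in L-GMP, 574 to 741 in GMP and 107 to 149 in L-GMP-derived cells. Il5ra, the interleukin-5 receptor chain that pairs with Csf2rb, read 77.5 to 146 over all 9 arrays, and Epx, a defining eosinophil peroxidase gene, was under the floor in L-GMP. Of 3 tested late neutrophil genes, 0 were called in L-GMP against GMP, with Camp at 3432 to 8518 in L-GMP and 717 to 3534 in GMP; 1 fell in each comparison of L-GMP-derived cells. Dendritic cell genes counted 0 higher and 2 lower of 4 in L-GMP, and 1 higher and 1 lower in L-GMP-derived cells, against GMP, and 1 higher and 0 lower against L-GMP. For erythroid and megakaryocyte genes (4 tested), B cell genes (3) and T and NK cell genes (4) 0 rose and at most 2 fell in any comparison, the 2 being T and NK cell genes in L-GMP-derived cells against L-GMP. The natural killer granule gene Nkg7 read 2372 to 2525 in GMP, 1455 to 1871 in L-GMP and 247 to 286 in L-GMP-derived cells. Of 7 GMP markers, 1 rose and 2 fell in L-GMP against GMP, 0 rose and 3 fell in L-GMP-derived cells against GMP, and 1 rose and 4 fell against L-GMP. What these levels add to the receptor results was not tested.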
